A study of Drosophila melanogaster with 6 samples.

Results

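The genes described here encode the proteins of the cytosolic ribosome of Drosophila melanogaster, together with their duplicated copies and a few homologues that carry ribosomal protein names. They were chosen by gene symbol: RpL or RpS followed by a digit or by A or P, plus sta, which encodes the small-subunit protein RpSA. Genes of the mitochondrial ribosome were left out. The rule gave 93 of 17611 genes, 39 assigned to the small (40S) and 54 to the large (60S) subunit. They comprise 80 canonical genes, 10 paralogues (additional copies of a canonical gene) and 3 related genes. The related genes RpL7-like, RpL24-like and RpLP0-like are homologues of yeast factors that take part in ribosome assembly and are not parts of the finished ribosome.

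The RNA came from Malpighian tubules, which form the urine of the fly. The control genotype was esg-GAL4, UAS-GFP, tub-GAL80TS over +, and the tumour genotype had the same driver, GFP and GAL80TS plus UAS-yki3SA over +. The esg-GAL4 driver acts in progenitor cells, of the gut and also of the tubule, so an effect of yki3SA inside tubule progenitors and an effect of the gut tumour cannot be told apart. GAL80TS blocks GAL4 at low temperature: virgin flies of both groups spent 6 to 8 days at 18 °C and then 8 days at 29 °C, before 80 tubules per genotype were taken. There were 3 libraries in each group, and a library held 34640437 to 49338340 counts. Separate cultures are not stated for the libraries of a group, so the p-values describe library-to-library spread and this may be of technical origin.

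Each ribosome holds 1 molecule of nearly every ribosomal protein, and a cell makes these proteins in matched amounts. Their transcripts are short, abundant and present in nearly all cells, and loss of a single copy of many of these genes gives the slow-growing Minute flies. Several ribosomal protein genes of the fly exist in duplicate. In such pairs 1 copy is usually active everywhere and the other is often restricted to the germline, as is known for RpS5b, RpS19b and RpL22-like.

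Levels are given in CPM, depth-corrected counts scaled between libraries by TMM (trimmed mean of M values). The scaling factors were 0.863 to 0.943 in control and 1.06 to 1.18 in tumour libraries, so TMM lowered tumour levels relative to control levels. Tubule identity was checked with marker genes. The 7 principal cell markers summed to between 10780 and 13300 CPM in control and between 6218 and 7546 CPM in tumour libraries. Of these 7 markers 3 fell (edgeR), beside 13.0% of all genes tested. Irk3 and NaPi-T had log2 fold changes of -1.48 and -1.30, while ct (0.016) and cad (-0.0008) were level. The 7 stellate cell markers summed to 1410 to 1605 CPM in control and 1028 to 1174 CPM in tumour libraries, and 3 of them fell. The summed levels of midgut and fat body markers, from tissues that a dissection can carry, were lower in tumour libraries. The 15 midgut markers summed to 273 to 803 CPM in control and 22.6 to 126 CPM in tumour libraries, and the 7 fat body markers to 1133 to 2092 and 287 to 524 CPM. Single markers differed from the sums: 10 of 14 tested midgut markers fell and 1, nub, rose (log2 fold change 1.89, adjusted p = 0.0434, edgeR). Of 6 tested fat body markers 4 fell, while Fbp1 (1.95) and Fbp2 (0.68) were not called. Over all genes tested 13.0% fell and 14.8% rose. In bulk RNA, fewer cells of a type and less RNA per cell cannot be told apart.

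Ribosomal protein transcripts took a smaller part of the tumour libraries. The 93 genes held 9.55%, 9.99% and 10.4% of all counts in the control libraries and 9.23%, 7.69% and 8.00% in the tumour libraries (9.98% ± 0.42 and 8.31% ± 0.81, SD, n = 3 each). The highest tumour library lay below the lowest control library. Balance between the subunits was nearly constant. The 33 canonical genes of the 40S subunit held 39.2% to 39.6% of canonical counts in control and 39.1% to 39.3% in tumour libraries.

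Canonical genes were far more abundant than the other members, compared per kilobase of exon. In control libraries the 80 canonical genes ranged from 362 to 3021 CPM per kilobase, with the middle part of the distribution (first to the third quartile) at 1078 to 1780. RpL27A (3021) and RpL41 (2656) were the most abundant, and the least abundant RpS9 (362), RpL38 (517) and RpS21 (599). Exons of RpS9 overlap asRNA:CR45874 on the opposite strand, and counting by strand is not stated, so its level is uncertain. RpL41 encodes the shortest ribosomal protein. The paralogues and related genes with the highest level per kilobase were RpL34a, at 233 CPM per kilobase, and RpL24-like, at 213. Below them lay RpS15Ab (43.1), RpLP0-like (26.8) and RpS5b (22.4). The order of the canonical genes was nearly the same in both groups (Spearman's rho 0.97 across 80 genes, a description, since the genes share libraries and lengths).

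**Figure D1:**
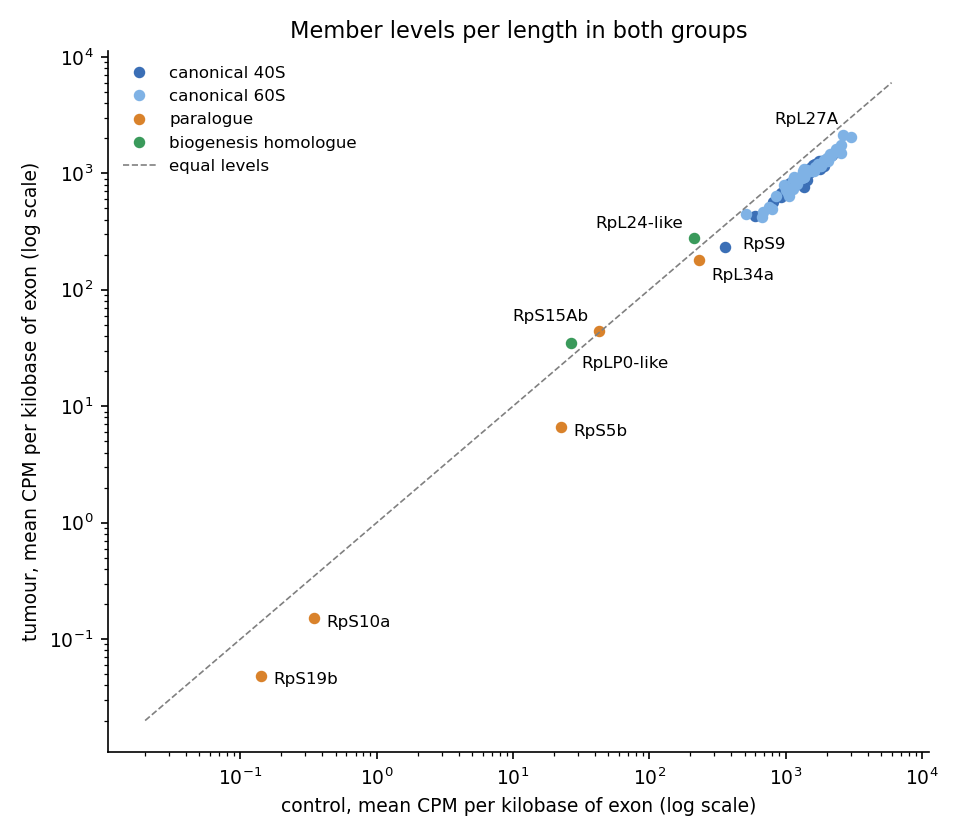
Mean level of each ribosomal protein gene per kilobase of exon in control (horizontal) and tumour (vertical) libraries, n = 3 each, on log axes; genes at 0 in either group are not drawn. Canonical genes lie between 362 and 3021 CPM per kilobase in control and below the line of equal levels. RpL24-like and RpLP0-like lie above it, and RpS15Ab lies barely above it (43.1 in control and 44.3 in tumour).

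Of the 13 paralogues and related genes, 5 had no count in any of the 6 libraries. These were RpL10Aa, RpL22-like, RpL37-2, RpS28a and RpL7-like. Exons of RpL7-like overlap CG34164 on the same strand, and how the counting treated reads shared by both is not stated, so its count of 0 is uncertain. A count of 0 allows up to 3 counts, which puts RpL22-like at no more than 0.00229% of the counts of the RpL22 pair in control and 0.00261% in tumour libraries, over the group and for counting error only. RpS28-like had 3 counts, all in control replicate 2, and its exons overlap CG3769 on the same strand, so this count is uncertain too. RpS10a had 10, 6 and 7 counts in the control and 1, 1 and 13 in the tumour libraries, and RpS19b had 4, 0 and 6 against 1, 0 and 4. These 8 genes were not tested, so all 80 canonical genes but only 3 paralogues and 2 related genes entered the comparison.

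All 80 canonical genes had a lower fitted level in tumour tubules, by similar amounts. Of the 80, 66 passed an adjusted p of 0.05 (edgeR quasi-likelihood test, Benjamini-Hochberg adjustment over all 9789 genes tested), all of them lower. Over all members tested, 67 of 85 fell and 0 rose, against 13.0% of all tested genes that fell and 14.8% that rose. At an unadjusted p under 0.05 the edgeR test gave 80 members lower, 78 of them canonical, and 2 higher, which were RpL24-like and RpLP0-like, beside 18.2% and 22.7% of all genes. DESeq2 called 80 members lower and limma-voom 72, against 17.5% and 13.3% of all genes, and both called 0 higher, against 14.0% and 14.9%. In 78 of the 80 every tumour library lay below every control library, a pattern found in 20.1% of all genes tested. The exceptions were RpL38 and RpL29.

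The median log2 fold change of the canonical genes was -0.54, or 1.46-fold lower, against 0.08 for all genes tested. Genes varied little around it: the first and the third quartile were -0.61 and -0.46. The 33 genes of the 40S subunit had a median of -0.54, and 29 of them fell. The 47 genes of the 60S subunit had a median of -0.55, and 37 fell. The 14 canonical genes that did not pass had adjusted p-values between 0.0512 and 0.246 (edgeR).

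**Figure D2:**
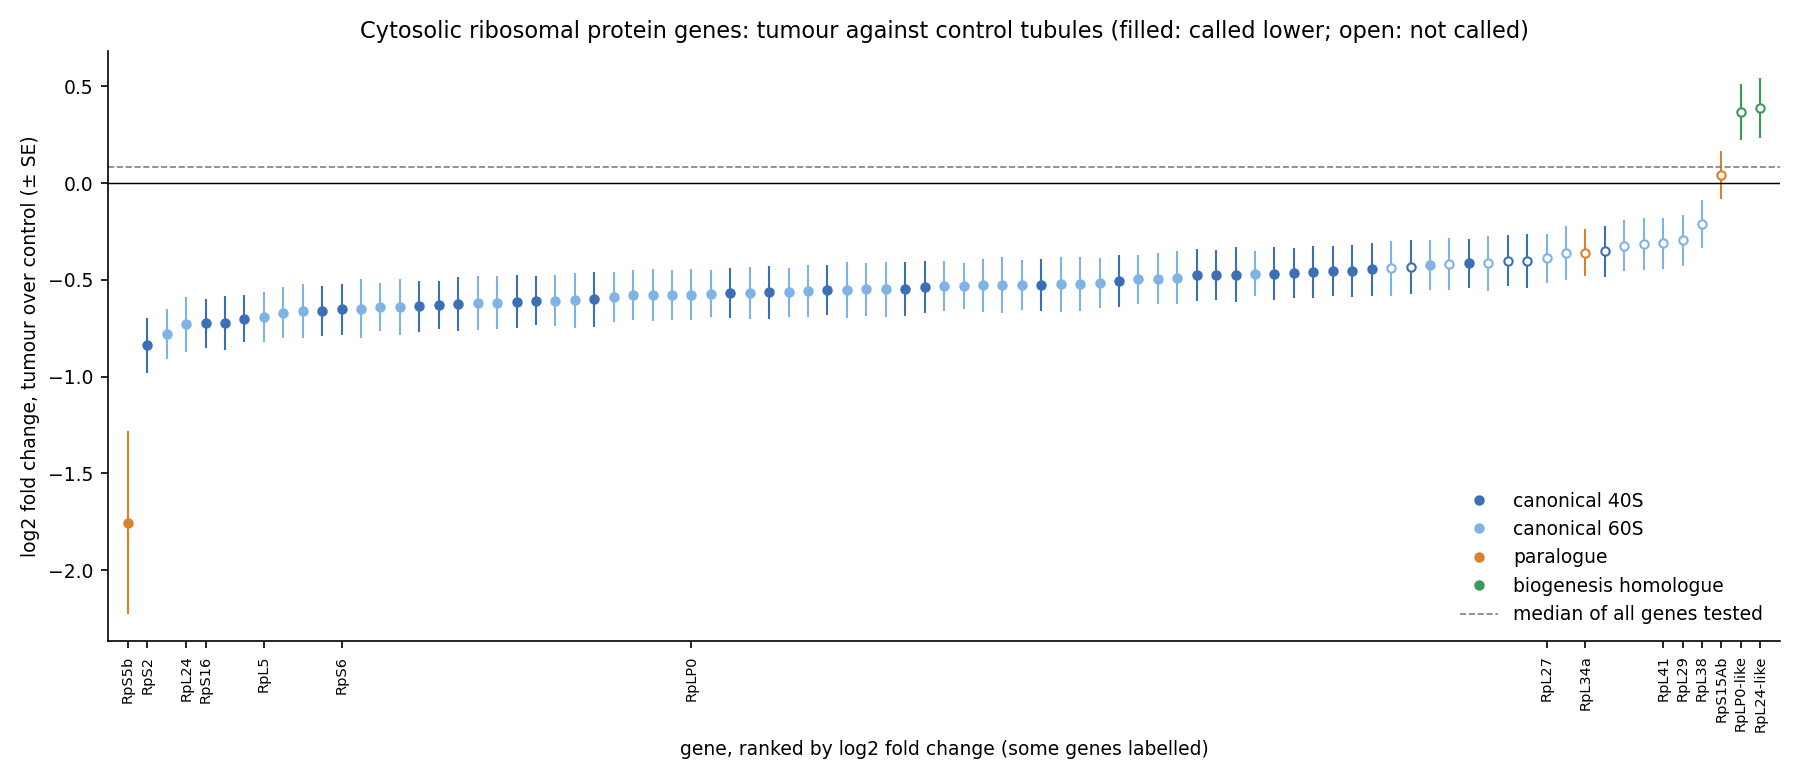
Log2 fold change of tumour over control for the 85 tested genes, ranked, with SE bars; filled points were called lower and open points were not called, and the dashed line is the median of all genes tested. All canonical genes lie between -0.84 and -0.21, RpS5b lies apart at -1.76, and RpL24-like (0.39) and RpLP0-like (0.37) lie at the opposite end.

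The largest fall among canonical genes was that of RpS2 (FBgn0004867, BDGP6 chromosome 2L, 9896265 to 9897552), a 40S protein near the path by which mRNA enters the ribosome. RpS2 was at 1703, 1554 and 1709 CPM in the control and 1084, 895 and 798 CPM in the tumour libraries. No tumour library came near the control range. Its log2 fold change was -0.84 ± 0.14 (SE), or 1.79-fold lower (adjusted p = 0.00454, edgeR).

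RpS16, RpS4 and RpL5 were also among the genes with the lowest fold changes. RpL5, which with RpL11 carries the 5S ribosomal RNA into the 60S subunit, was at 2907, 2903 and 3281 CPM in the control and 2110, 1725 and 1790 CPM in the tumour libraries. The groups were well apart, with a log2 fold change of -0.69 ± 0.13 (adjusted p = 0.00667, edgeR). RpL11, its partner, had a log2 fold change of -0.44 ± 0.14 and did not pass (adjusted p = 0.0534, edgeR). RpS16 and RpS4, both of the 40S subunit, had log2 fold changes of -0.73 and -0.70.

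At the other end, apart from the canonical copies of paralogues, stood RpL38, RpL29, RpL41, RpL15, RpL17 and RpL27, with log2 fold changes of -0.21 to -0.39, none of which passed in edgeR with TMM. DESeq2 called RpL41, RpL15, RpL17 and RpL27 lower (adjusted p = 0.0380, 0.0308, 0.0306 and 0.0097), and RpL15, RpL17 and RpL27 passed without tumour replicate 1. RpL27 also passed with upper-quartile scaling (0.0409), limma-voom (0.0489) and the filter of 5 CPM in 3 libraries (0.0317). RpL38, known in the mouse for a role in the translation of Hox transcripts, was at 530, 507 and 534 CPM in the control and 508, 403 and 447 CPM in the tumour libraries. Tumour replicate 1 lay inside the control range (log2 fold change -0.21 ± 0.13, adjusted p = 0.246, edgeR). RpL29 was at 405, 390 and 343 CPM in the control and 350, 294 and 283 CPM in the tumour libraries. Here too tumour replicate 1 overlapped the control range (log2 fold change -0.30 ± 0.13, adjusted p = 0.132, edgeR).

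The stalk of the large subunit, which recruits translation factors, is built of RpLP0, RpLP1 and RpLP2. These had log2 fold changes of -0.58, -0.53 and -0.52, and all 3 fell (adjusted p = 0.0149, 0.0290 and 0.0262, edgeR). RpS27A and RpL40 are made as fusions with ubiquitin and also supply that protein. They fell by 0.61 and 0.57 on the log2 scale (adjusted p = 0.0105 and 0.0177, edgeR). RpS6, the 40S protein phosphorylated by S6 kinase downstream of Tor, was at 2086, 1977 and 2168 CPM in the control and 1516, 1258 and 1189 CPM in the tumour libraries. Its log2 fold change was -0.65 ± 0.13 (adjusted p = 0.00926, edgeR). The gene sta, most abundant of the 40S genes by CPM per kilobase, fell by 0.61 (adjusted p = 0.0136, edgeR). The calls of RpLP0, RpLP1, RpLP2, RpL40 and sta were lost under at least 1 scaling and in at least 1 fit without 1 library. Those of RpS27A and RpS6 held in all of these. RpS3, which lines the mRNA entry channel, had a log2 fold change of -0.43 ± 0.14 and did not pass (adjusted p = 0.0540, edgeR). RpS3 passed with upper-quartile scaling, DESeq2, limma-voom, the filter of 5 CPM in 3 libraries and without tumour replicate 1 (0.0093 to 0.0471).

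The median differed little when the canonical genes were split by RNA genes inside their bounds, by exon overlap or by chromosome arm. The 29 canonical genes with a small nucleolar or small nuclear RNA gene inside their bounds had a median log2 fold change of -0.56, and the 51 without 1 had -0.53. The 28 whose exons overlap another gene in the annotation had a median of -0.55, and the other 52 had -0.54. Counting by strand is not stated, which leaves the counts of overlapping genes uncertain. By chromosome arm the medians lay between -0.47 on 2R (17 genes) and -0.58 on 3L (14 genes), with -0.53 for the 15 genes on the X, and the single gene of chromosome 4, RpS3A, had -0.46. Across the 80 genes the log2 fold change had a Spearman's rho of -0.12 with exon length and of -0.37 with the control level in CPM. Both describe genes that share the same libraries, and the control level is itself part of the fold change, so these quantities are not independent.

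The tumour libraries differed among themselves more than the control libraries. In tumour replicate 1 all 80 canonical genes lay above the mean of the tumour group, and the members summed to 87020 CPM. The sums of tumour replicates 2 and 3 were 71290 and 68090 CPM, and those of the control libraries 106000 to 113900 CPM. The median coefficient of variation of a canonical gene was 4.26% among control and 13.6% among tumour libraries. Without tumour replicate 1 the median log2 fold change was -0.72, and 77 canonical genes fell, beside 11.0% of all genes. Without tumour replicate 2 the number was 17 (9.7% of all genes) and without tumour replicate 3 it was 24 (10.2%), with medians of -0.50 and -0.47. Without control replicate 1, 2 or 3 it was 34 (9.06%), 55 (11.3%) and 26 (8.75%).

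**Figure D3:**
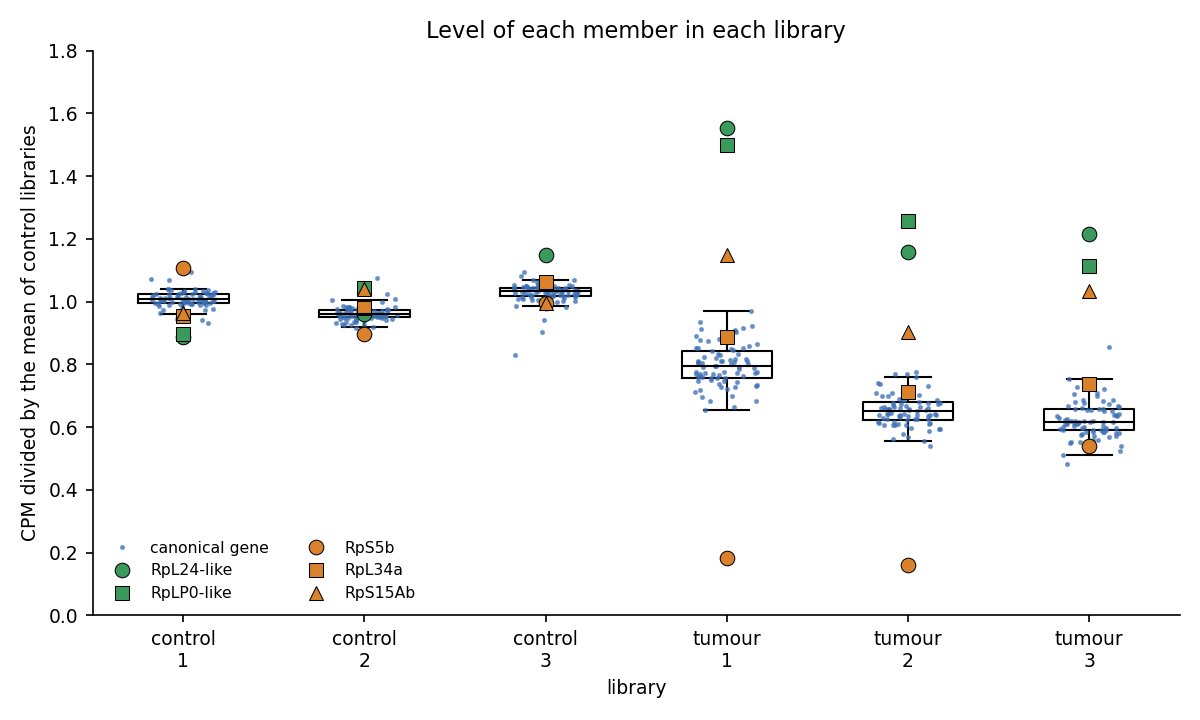
Level of each gene in each library divided by its mean over control libraries; small points and boxes (median and quartiles, whiskers to 1.5 times the quartile range) are the 80 canonical genes, and large symbols are the paralogues and related genes tested. The canonical genes are lower in all 3 tumour libraries and least so in tumour replicate 1, where RpL24-like and RpLP0-like are at their highest.

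The number of calls depended on the scaling. With library totals alone in place of TMM, the median of all genes tested moved from 0.08 to 0.37, and that of the canonical genes from -0.54 to -0.26. On that scaling 22 canonical genes fell, against 8.48% of all genes, RpL38 turned to 0.075, and 2 related genes rose, against 31.5%. RLE gave 67 canonical genes lower (14.3% of all genes) and upper-quartile scaling 73 (14.4%), and TMM factors computed without the members gave 66 (13.1%). Relative to the median of all genes tested, the canonical median was -0.62 with TMM and -0.63 with library totals. The call held for 17 canonical genes in each of the 6 fits without 1 library, and also under TMM with and without the members, RLE, upper-quartile scaling and library totals. They included RpL4, RpL5, RpL8, RpL13, RpL18, RpL23A, RpL24, RpS2, RpS4, RpS6, RpS9, RpS15, RpS16, RpS24 and RpS27A. When counts of the midgut, fat body and germline markers were left out of totals and TMM factors, 66 canonical genes fell (13.1% of all genes), with a median of -0.55. A threshold of 0.01 in place of 0.05 left 12 members lower, beside 6.12% of all genes.

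The related genes RpL24-like and RpLP0-like differed from the canonical genes. RpL24-like (FBgn0037899, chromosome 3R, 11430740 to 11431582) is the homologue of a yeast factor that occupies the place of the RpL24 protein during assembly of the large subunit. It was at 146, 158 and 189 CPM in the control and 255, 190.4 and 199.8 CPM in the tumour libraries. All tumour libraries lay above all control libraries, though by little in tumour replicate 2. The log2 fold change was 0.39 ± 0.16 and did not pass (adjusted p = 0.10, edgeR); with library totals alone it was 0.67 and passed (adjusted p = 0.0109). RpL24 itself was at 1314, 1285 and 1404 CPM in the control and 952, 742 and 719 CPM in the tumour libraries (log2 fold change -0.73 ± 0.14, adjusted p = 0.00791, edgeR).

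The share of a gene in the summed counts of its pair does not depend on how libraries are scaled. It grows when the gene rises and also when its canonical copy falls. The log2 fold changes were 0.39 for RpL24-like and -0.73 for RpL24, and 0.37 for RpLP0-like and -0.58 for RpLP0. The median of all genes tested was 0.08, so a gene at that median would also gain share beside these canonical copies. RpL24-like made up 9.996%, 10.96% and 11.9% of the pair with RpL24 in the control and 21.2%, 20.4% and 21.8% in the tumour libraries. The groups were far apart, with means of 10.9% ± 0.94 and 21.1% ± 0.67 (SD, n = 3 each). The exact two-sided permutation p was 0.10, the smallest that 3 against 3 libraries allow, and 0.15 when adjusted over the 6 pairs compared. The difference in share was between 9.70 and 10.6 percentage points when any 1 library was left out.

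RpLP0-like (FBgn0033485, chromosome 2R, 10098518 to 10099590) is the homologue of a yeast assembly factor that precedes the stalk protein RpLP0. It was at 22.8, 26.5 and 26.9 CPM in the control and 38.1, 32.0 and 28.3 CPM in the tumour libraries. The tumour values were all higher, but tumour replicate 3 stood close to the control range. The log2 fold change was 0.37 ± 0.14 and did not pass (adjusted p = 0.0934, edgeR; 0.0115 with library totals alone). Its share of the pair with RpLP0 was 0.980%, 1.14% and 1.07% in the control and 2.05%, 2.07% and 1.95% in the tumour libraries (exact permutation p = 0.10, the smallest possible, adjusted 0.15). RpLP0-like overlaps Jra on the opposite strand, and RpL24-like overlaps Dtd. Jra, the fly Jun, was at 148, 270 and 178 CPM in the control and 124, 124 and 86.7 CPM in the tumour libraries, and Dtd at 4.30 to 6.86 CPM over all libraries. The part of reads from these genes in the counts was not tested.

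**Figure D4:**
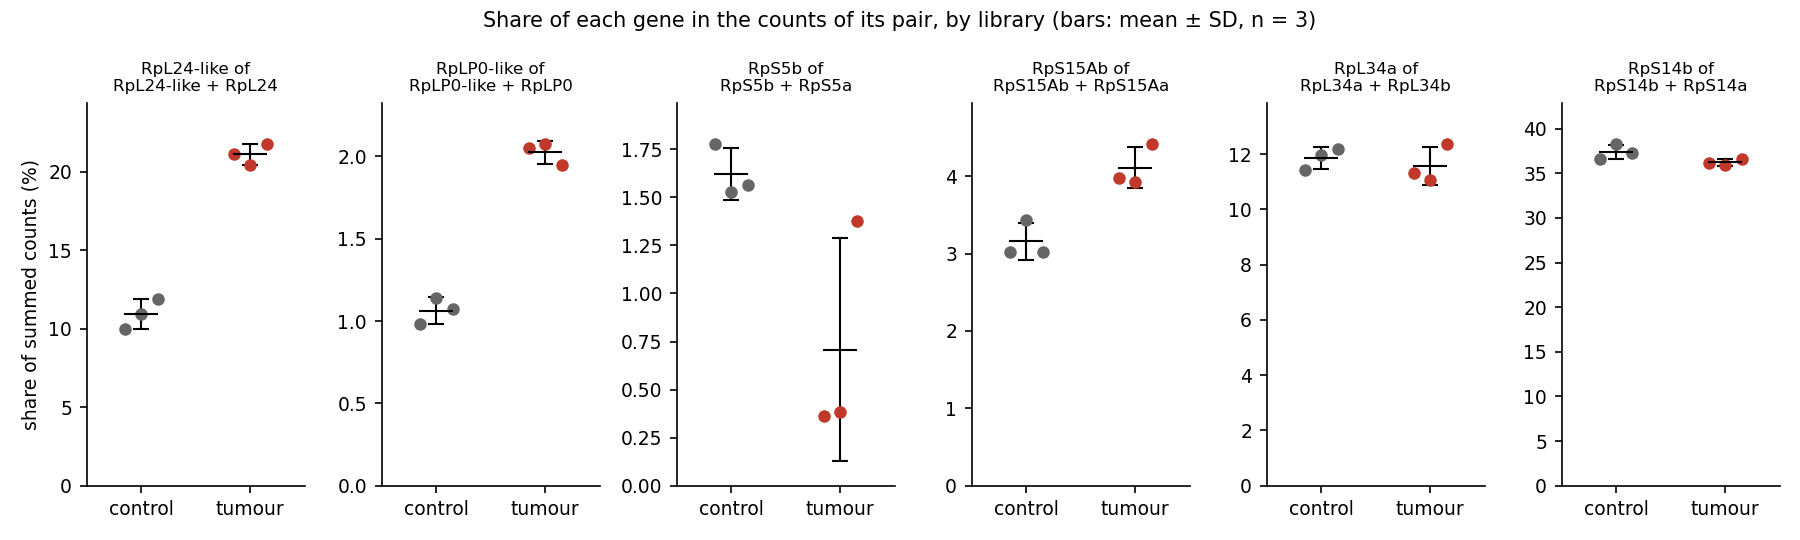
Share of a paralogue or related gene in the summed counts of its pair in each library (points), with the mean and SD of each group (n = 3); every vertical axis starts at 0. RpL24-like goes from 10.9% to 21.1% and RpLP0-like from 1.06% to 2.02%, while RpL34a (11.8% and 11.6%) and RpS14b (37.4% and 36.2%) are nearly level and RpS5b is spread widely in tumour.

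RpS5b (FBgn0038277, chromosome 3R, 14900432 to 14901563) had the lowest fold change of all members tested. It is the germline-enriched copy of RpS5a, a 40S protein at the mRNA exit side. RpS5b was at 23.6, 19.1 and 21.3 CPM in the control and 3.92, 3.40 and 11.5 CPM in the tumour libraries. All tumour libraries were lower, and tumour replicate 3 was about midway between the others and the controls. The log2 fold change was -1.76 ± 0.47 (adjusted p = 0.0349, edgeR). The call was lost with library totals alone (-1.43, adjusted p = 0.0585), with no filter (0.0780) and in 5 of the 6 fits without 1 library (0.0625 to 0.0963), and held without tumour replicate 3. Its share of the pair with RpS5a was 1.78%, 1.53% and 1.56% in the control and 0.364%, 0.381% and 1.38% in the tumour libraries (exact permutation p = 0.10, adjusted 0.15).

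The 10 germline genes of the germline and eggshell list, a split made after the values were seen, summed to 100.2, 76.6 and 88.5 CPM in the control and 53.0, 58.7 and 157 CPM in the tumour libraries. A large part of these sums came from gcl, at 39.7, 30.3 and 31.1 CPM in the control and 31.9, 39.7 and 52.8 CPM in the tumour libraries. In 9 of the 10 tumour replicate 3 was the highest tumour library, though the share of all genes with this pattern was not counted. The oogenesis gene orb, for example, was at 14.0, 9.80 and 13.2 CPM in the control and 3.70, 3.06 and 18.3 CPM in the tumour libraries. RpS10a and RpS19b, with few counts, were also highest in tumour replicate 3 among the tumour libraries. The 13 eggshell and yolk genes of the list summed to 2346 to 5258 CPM in control and 157 to 312 CPM in tumour libraries, lowest in tumour replicate 3. Most of this sum came from Yp1, Yp2 and Yp3, with means of 599, 1320 and 1777 CPM in control libraries. Their means in tumour libraries were 39.5, 54.2 and 114 CPM, and Yp1 is also a gene of the fat body list. Over the whole germline and eggshell list of 23 genes the sums were 2423 to 5346 and 222 to 370.5 CPM, and no gene was at 0 in all libraries. Of 10 male germline markers 1 was at 0 in all libraries and the list summed to at most 1.54 CPM. The part of carried germline RNA in the values of RpS5b was not tested.

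The other tested paralogues lay nearer to their canonical copies. RpL34a was at 138, 142 and 154 CPM in the control and 129, 103 and 107 CPM in the tumour libraries, without overlap. Its log2 fold change was -0.36 ± 0.12 (adjusted p = 0.0616, edgeR), beside -0.32 ± 0.14 (adjusted p = 0.12) for RpL34b. RpL34a passed with RLE (0.0498), upper-quartile scaling (0.0458), the filter of 5 CPM in 3 libraries (0.0363), DESeq2 (0.0194) and without tumour replicate 1 (0.0263), and RpL34b with DESeq2 (0.0494) and without tumour replicate 1 (0.0379). The share of RpL34a in the pair was 11.8% ± 0.39 and 11.6% ± 0.68 (exact permutation p = 0.70). RpS15Ab was at 30.1, 32.5 and 31.0 CPM in the control and 35.8, 28.2 and 32.2 CPM in the tumour libraries, with overlapping groups (log2 fold change 0.040 ± 0.12, adjusted p = 0.839, edgeR). RpS15Aa had a log2 fold change of -0.35 ± 0.13 (adjusted p = 0.0793, edgeR) and passed with DESeq2 (0.0196), the filter of 5 CPM in 3 libraries (0.0458) and without tumour replicate 1 (0.0275). The share of RpS15Ab in the pair was 3.16% ± 0.24 in control and 4.11% ± 0.26 in tumour libraries (exact permutation p = 0.10, adjusted 0.15). RpS14a and RpS14b are tandem genes on the X (7933742 to 7934677 and 7934898 to 7935792) for the same protein and were counted as canonical. Both fell (adjusted p = 0.0409 and 0.0225, edgeR), and RpS14b held 37.4% ± 0.82 and 36.2% ± 0.36 of their counts (exact permutation p = 0.20, adjusted 0.24). How reads were split between such close copies is uncertain.

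The canonical partners of the copies that were not tested all fell, beside 82.5% of the canonical genes and 13.0% of all genes tested. RpL22, RpL37-1, RpL7, RpL10Ab, RpS10b, RpS19a and RpS28b had log2 fold changes of -0.51, -0.58, -0.59, -0.49, -0.56, -0.51 and -0.41 (adjusted p = 0.0123 to 0.0448, edgeR). None of these calls held in all 6 fits without 1 library, and none held under every scaling. RpS5a had a log2 fold change of -0.48 ± 0.13 (adjusted p = 0.0326), far from that of RpS5b. The difference within this pair was tested only through the share given above.

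Lists of other genes of the translation machinery were compared in the same fit. Of 37 genes of ribosome biogenesis 23 rose and 0 fell in the edgeR test, with a median log2 fold change of 0.63, beside 14.8% of all genes higher and 13.0% lower. At an unadjusted p under 0.05 it was 29 higher and 1 lower, beside 22.7% and 18.2% of all genes. DESeq2 called 23 higher and 1 lower, beside 14.0% and 17.5%, and limma-voom 23 and 0, beside 14.9% and 13.3%. In 31 of the 37 every tumour library lay above every control library, against 26.8% of all genes tested. Polr1B, a subunit of RNA polymerase I, which transcribes ribosomal RNA, was at 13.3, 13.0 and 14.8 CPM in the control and 27.6, 26.9 and 24.0 CPM in the tumour libraries (log2 fold change 0.93 ± 0.13, adjusted p = 0.00156, edgeR). NHP2, a protein of the particles that modify ribosomal RNA, rose 2.08-fold, the nucleolar helicase gene pit 1.92-fold and the nucleolar GTPase gene Ns2 1.62-fold (adjusted p = 0.00535, 0.00309 and 0.00571, edgeR). The canonical ribosomal protein genes and the biogenesis genes thus had medians of opposite sign with TMM, RLE, upper-quartile scaling and library totals (biogenesis 0.56 to 0.92). Without tumour replicate 1, 10 biogenesis genes rose (8.58% of all genes), and without tumour replicate 2 or 3 it was 19 (9.82%) and 18 (9.96%). Without control replicate 1, 2 or 3 it was 16 (9.86%), 16 (12.1%) and 22 (8.8%).

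Of 36 translation factor genes 6 fell and 2 rose, with a median of -0.10, beside 13.0% of all genes lower and 14.8% higher. The share that fell was near that of all genes. DESeq2 called 11 lower, beside 17.5% of all genes, and 1 higher, beside 14.0%. Rack1, a stable component of the 40S subunit without an Rp symbol, was at 1936, 1896 and 2024 CPM in the control and 1323, 1171 and 1129 CPM in the tumour libraries. Its groups did not overlap, and its log2 fold change of -0.69 ± 0.12 (adjusted p = 0.0044, edgeR) lay inside the range of the canonical genes. The abundant elongation factor genes eEF1alpha1 and eEF1gamma fell 1.67-fold and 1.38-fold, and eIF4A, the RNA helicase of initiation, 1.49-fold (adjusted p = 0.00628, 0.0202 and 0.0135, edgeR). The 2 genes that rose, named after their values were seen, were eIF6, a factor that binds the 60S subunit and keeps it from joining the 40S subunit (1.64-fold, adjusted p = 0.0205, edgeR), and eIF4B (1.30-fold, adjusted p = 0.0464, edgeR). Scaled by totals, the translation factors gave 2 lower and 15 higher, beside 8.48% and 31.5% of all genes. Without control replicate 3 or tumour replicate 2, 2 fell, beside 8.75% and 9.7% of all genes.

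**Figure D5:**
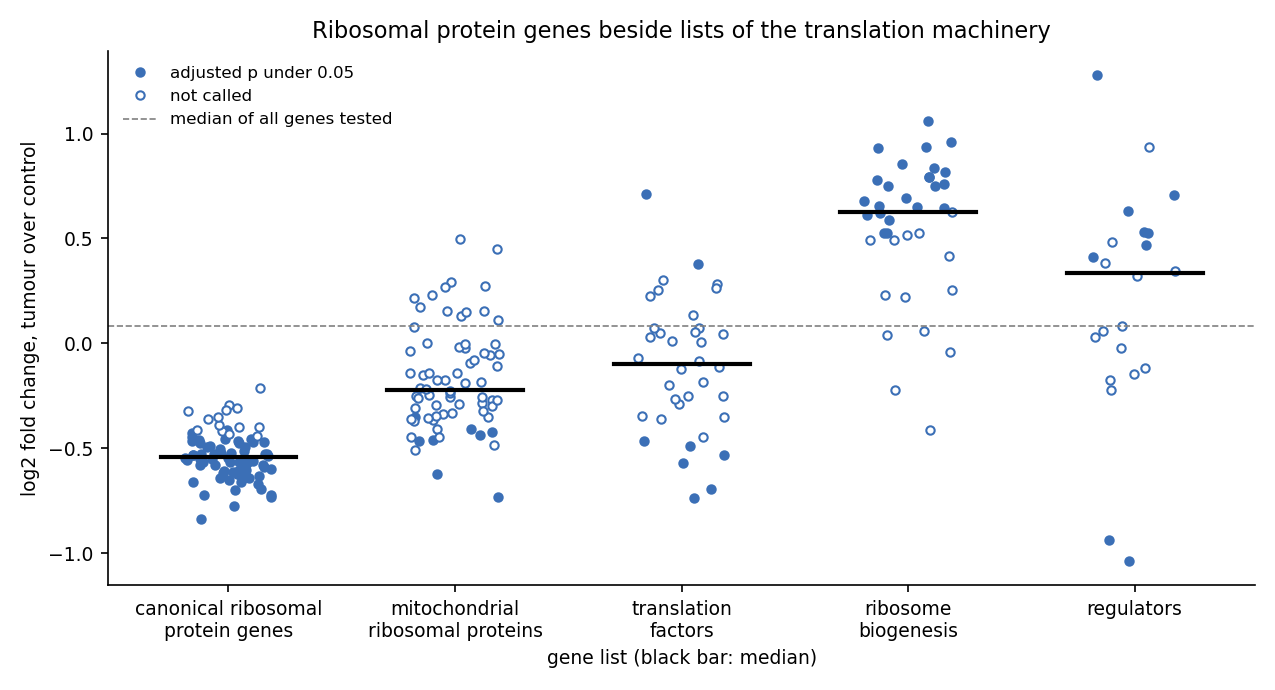
Log2 fold change of tumour over control for each tested gene (points, filled where the adjusted p was under 0.05) of the canonical ribosomal proteins and 4 other lists, with each median as a bar. The canonical genes are grouped closely around -0.54, and the ribosome biogenesis list lies around 0.63.

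Mitochondrial ribosomal proteins, encoded in the nucleus like the cytosolic ones, gave 8 falls and 0 rises among 72 genes tested, with a median of -0.22, a share of 11.1% lower beside 13.0% of all genes. At an unadjusted p under 0.05 it was 20 lower and 2 higher, beside 18.2% and 22.7% of all genes. DESeq2 called 14 lower and 0 higher, beside 17.5% and 14.0%, and limma-voom 6 and 0, beside 13.3% and 14.9%. Scaled by totals, 1 was lower and 10 were higher, beside 8.48% and 31.5% of all genes. RLE called 12 lower and 0 higher, against 14.3% and 11.6% of all genes. A fit with a replicate block called 6 lower and 0 higher, against 12.2% and 13.7%.

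Of 22 regulators of ribosomal protein genes or of their translation, 7 rose and 2 fell, beside 14.8% of all genes higher and 13.0% lower. Scaled by totals, 11 were higher and 2 lower, beside 31.5% and 8.48%. Irbp18, the dimer partner of the Minute-response factor Xrp1, was at 6.56, 6.01 and 5.13 CPM in the control and 16.3, 13.8 and 12.9 CPM in the tumour libraries (log2 fold change 1.28 ± 0.18, adjusted p = 0.00191, edgeR). The groups were well separated at this low level. Xrp1 itself, described after its values were seen, was at 1781, 1776 and 1431 CPM in the control and 1742, 1878 and 1664 CPM in the tumour libraries, with overlapping groups (adjusted p = 0.675, edgeR). Mnt, an antagonist of Myc, fell by 1.04 on the log2 scale and PEK, a kinase of the initiation factor eIF2alpha, by 0.94 (adjusted p = 0.00248 and 0.00791, edgeR). REPTOR-BP, the partner of a Tor-regulated transcription factor, rose by 0.63 (adjusted p = 0.00372, edgeR). Without control replicate 1 or tumour replicate 3, 3 regulators rose (9.86% and 9.96% of all genes), and without tumour replicate 1 or 2 it was 4 (8.58% and 9.82%).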

How the data were processed

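Poly-A RNA (integrity number above 7) was made into TruSeq libraries and sequenced on a HiSeq instrument, per the labels. The authors deposited 1 table of raw read counts per gene, with 1 column per library. TopHat, Cufflinks and HTSeq are named in the submitters' processing notes, without versions; no build, annotation release or strand setting is stated there. Symbols were assigned by FlyBase identifier (59 genes had none). Coordinates and exon lengths came from the Ensembl BDGP6 annotation, which need not be the one used for counting. Sequences were not used here.

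Tumour was compared with control with R 4.3.3 and edgeR 4.0.16 (robust quasi-likelihood test, TMM, filterByExpr with minimum count 10 and minimum total 15, Benjamini-Hochberg adjustment over 9789 genes, threshold 0.05). The SE is the log2 fold change divided by the root of F. DESeq2 1.42.0, limma 3.58.1 (voom) and scipy 1.17.1 were also used. The fits were first run on simulated data. Levels are TMM-scaled CPM. The limit for a gene without counts is 3 counts, or 0.0608 to 0.0866 unscaled CPM, and covers counting error only. Exact permutation tests of the pair shares ran over the 6 libraries. They were added to a plan that described these shares without a test. Their smallest possible p was 0.10, so none could pass 0.05. The members and lists were chosen with earlier results of these data known. Named genes were the paralogues and related genes with their canonical copies, the 6 lowest and 6 highest fold changes and the 3 most and 3 least abundant per kilobase among other canonical genes, the stalk, ubiquitin fusion, RpS3, RpS6 and sta genes, Rack1, and per other list at most 4 genes, by lowest adjusted p; RpL11, RpS3A, orb and genes said to be named later are exceptions, and some genes that the rule names are not reported here. Summed CPM of marker lists given nowhere else was 402.5 to 424 in control and 296.5 to 381 in tumour for muscle (5 genes), 34.7 to 53.3 and 17.4 to 20.8 for hemocytes (4), 26.5 to 32.4 and 18.1 to 21.7 for trachea (4), and 11.7 to 12.3 and 9.99 to 25.7 for progenitors (4). Alternatives were other scalings, filters and tools, a replicate block, a threshold of 0.01 and leaving out each library.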

Additional observations from a re-analysis of the deposited data

How the results depend on the processing

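The main count was 67 members lower and 0 higher. With library totals alone it was 22 lower and 2 higher (RpL24-like and RpLP0-like), with medians of -0.26 for canonical genes and 0.32 for the 5 paralogues and related genes tested; at a threshold of 0.01 it was 12 lower. Leaving out 1 library gave 17 to 78 lower, and medians of -0.72 to -0.47 for canonical genes. The median of the 5 paralogues and related genes, 0.040, is the value of RpS15Ab. It turned negative with RLE (-0.026), upper-quartile scaling (-0.012), 5 CPM in 3 libraries (-0.0033) and DESeq2 (-0.026), was -0.73 with no filter, where 8 were tested, and lay between -0.10 and 0.13 without 1 library; the sign of RpS15Ab turned with it, except with no filter. RpL38 turned to 0.075 with library totals. The tumour minus control difference in the members' share of counts, -1.67 percentage points, was -2.71 without mitochondrial and the 20 most abundant genes. Named members kept direction and side of the threshold in 525 of 640 combinations of gene and alternative.

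Alternatives for the other lists were chosen after seeing the data. Over all genes tested 8.48% were lower and 31.5% higher with library totals, and 17.5% and 14.0% with DESeq2. The share higher was 11.6% with RLE, 12.1% with upper-quartile scaling and 13.7% with the replicate block. Without 1 library 8.75% to 11.3% of all genes were lower and 8.58% to 12.1% higher. Mitochondrial ribosomal proteins gave 1 lower and 10 higher with library totals, 14 lower with DESeq2 and 2 to 13 lower without 1 library. Translation factors gave 2 lower and 15 higher with library totals, 11 lower and 1 higher with DESeq2, 1 higher with RLE, upper-quartile scaling or the replicate block, and 2 to 9 lower and 0 or 1 higher without 1 library. Biogenesis gave 1 lower with DESeq2, and 10 to 22 higher and 0 or 1 lower without 1 library. Regulators gave 11 higher with library totals and 3 to 6 without 1 library.

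Deviations of same-numbered libraries had correlations of 0.0824, -0.0833 and 0.058, and those of differently numbered libraries lay between -0.15 and 0.102. With 3 libraries a group this cannot decide whether libraries were paired by number, which is not stated. With a replicate block 67 members fell and 0 rose, beside 12.2% and 13.7% of all genes. With 3 libraries a group, exact permutation tests cannot go below 0.10.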
